A study of Bos taurus with 6 samples.

Results

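Expression of 8 genes of DNA replication, nucleotide supply and the entry into S phase was followed in cortical pieces of fetal bovine ovaries. The genes were RRM1, RRM2, DTYMK, FEN1, KIAA0101, CDK4, EZH2 and LMNB1. They were taken from a table of 158 probe sets (sets of short oligonucleotides on the array that together report 1 transcript) that the authors deposited as the outcome of their comparison between the media. Each of the 8 had 1 row there, so 8 of the 24016 bovine probe sets on the array are described. Ovaries came from a slaughterhouse, and pieces of their cortex were cultured for 2 days. The 3 insulin arrays came from pieces in ITS+ medium, which contains insulin, and the series description calls these pieces enriched for primary follicles. The 3 control arrays came from pieces in TS+ medium, which holds transferrin, linoleic acid, albumin (BSA) and selenous acid, described as enriched for primordial follicles. Both groups were cultured, and the labels do not name the fetuses or cultures behind each array, so the errors given here cover the spread between arrays, and that spread may be technical.

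Before a cell divides it copies its DNA in S phase. This needs a supply of the DNA building blocks, the deoxynucleotides, which ribonucleotide reductase makes from ribonucleotides and a chain of kinases activates. It also needs the replication machinery, with the sliding clamp PCNA at its centre, and a passage out of the G1 phase that cyclin-dependent kinases open. In the ovary, primordial follicles hold a resting oocyte inside flat, seldom dividing pregranulosa cells, and the granulosa cells of growing follicles divide. Cortex also holds stroma and vessels, and in pieces measured whole, a larger share of cycling cells and more transcript per cell cannot be told apart.

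The identity of the rows rests on different evidence. FEN1 and KIAA0101 were named by the symbol in the authors' table, 2 of the 8. RRM1, RRM2, DTYMK and EZH2 carried a gene number as symbol, which the RefSeq table of assembly ARS-UCD2.0 resolved to the same gene as the row's title. CDK4 and LMNB1 were named by their titles alone, and that of LMNB1 describes a transcribed locus strongly similar to a predicted dog lamin B1. The number of other probe sets sharing a cluster number with any of the 8 was 0, so each gene is described here by 1 probe set. Probe sets of these genes under another cluster number were not looked for. The signal of one probe set cannot be set against that of another as an amount of RNA.

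All 8 genes were higher with insulin, from 1.49-fold for CDK4 to 2.77-fold for RRM2. The rows had been chosen by the authors on this contrast: their deposited table holds p-values up to 9.98e-04, and those of the 8 genes lay between 8.89e-05 for KIAA0101 and 8.46e-04 for LMNB1, the nearest of the 8 to that upper end. Values just outside it are not in that table. The direction and size of each difference are therefore a description. Limma results for these genes are given further below, but they use the contrast behind that choice and are no independent test.

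**Figure D1:**
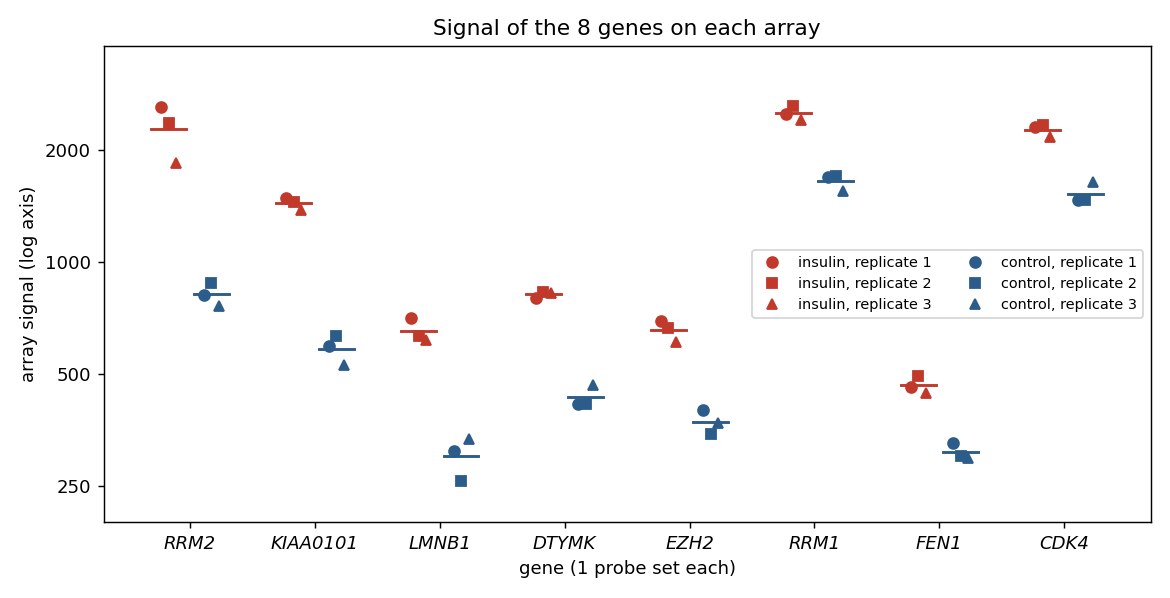
Array signal (log axis) of the 8 genes on each of the 6 arrays, with insulin in red left of control in blue, symbols for replicate numbers and a line at each group mean. In every gene the 3 insulin arrays lie above the 3 control arrays, with the widest gap in KIAA0101 and the narrowest in CDK4.

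Ribonucleotide reductase, the enzyme that reduces ribonucleotides to deoxynucleotides, has a large subunit, RRM1, which carries the catalytic and regulatory sites, and a small subunit, RRM2, which supplies the radical and is made mainly in S phase. RRM2 gave signals of 2603, 2359 and 1844 on insulin arrays 1, 2 and 3, against 815, 880 and 760 on control arrays 1, 2 and 3. Means were 2269 ± 387 with insulin and 818 ± 59.99 in control (SD, n = 3 each), and the log2 difference was 1.44 (limma SE 0.16). Insulin array 3 was the lowest of its group and was still 2.10-fold above the highest control array.

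RRM1 gave signals of 2496, 2622 and 2402 on insulin arrays 1, 2 and 3, against 1687, 1700 and 1554 on control arrays 1, 2 and 3. Means were 2506 ± 110 with insulin and 1647 ± 81.0 in control (SD, n = 3 each), and the log2 difference was 0.60 (SE 0.11). The groups did not overlap, and the difference was the smaller of those of the 2 subunits. On each array the RRM2 signal was therefore also taken relative to the RRM1 signal. The log2 ratio of RRM2 to RRM1 was 0.06, -0.15 and -0.38 on insulin arrays 1, 2 and 3, against -1.03, -0.94 and -1.02 on control arrays 1, 2 and 3. It averaged -0.16 ± 0.22 with insulin and -0.996 ± 0.05 in control (SD, n = 3 each), a difference of 0.84 on the log2 scale. The lowest insulin ratio lay 0.56 above the highest control ratio. The sign of such a ratio depends on the probes and says nothing of which subunit is more abundant. Its change between media follows from the log2 differences of the 2 rows, both chosen by the authors on this contrast. It is a description and was not tested.

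DTYMK, the kinase that turns dTMP into dTDP on the way to dTTP, gave signals of 801, 831 and 825 on insulin arrays 1, 2 and 3, against 417, 415 and 467 on control arrays 1, 2 and 3. Means were 819 ± 15.97 with insulin and 433 ± 30.0 in control (SD, n = 3 each), and the log2 difference was 0.90 (SE 0.11). Its insulin arrays were tightly grouped, and control array 3 stood above the other two controls. Of the other genes in the list of 36 genes of nucleotide supply, the authors' table named only IMPDH1, which makes the xanthosine monophosphate needed for guanine nucleotides. IMPDH1 averaged 4070 ± 120 with insulin and 3192 ± 61.4 in control (SD, n = 3 each), and the log2 difference was 0.35 (SE 0.11). It did not pass the threshold of 0.05 in the fit over all probe sets (limma adjusted p = 0.160), and it is the 1 row of that list's 4 named genes that did not. The remaining 32 genes of the list, among them TYMS and TK1, are not named in that table and were not analysed here.

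KIAA0101, now called PCLAF, binds PCNA at replication forks. It gave signals of 1487, 1451 and 1381 on insulin arrays 1, 2 and 3, against 594, 633 and 528 on control arrays 1, 2 and 3. Means were 1440 ± 53.8 with insulin and 585 ± 52.8 in control (SD, n = 3 each), and the log2 difference was 1.28 (SE 0.12). Its lowest insulin signal was 2.18-fold above its highest control signal, the widest gap among the 8 genes.

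FEN1, the nuclease that trims the flaps of Okazaki fragments and also binds PCNA, gave signals of 461, 493 and 446 on insulin arrays 1, 2 and 3, against 327, 302 and 297 on control arrays 1, 2 and 3. Means were 467 ± 23.8 with insulin and 309 ± 15.9 in control (SD, n = 3 each), and the log2 difference was 0.57 (SE 0.11). The groups did not overlap, with the lowest insulin signal 1.36-fold above the highest control signal. FEN1 and KIAA0101 were the 2 named rows of a list of 56 DNA replication genes, and the others, such as the MCM helicase subunits and PCNA itself, were not analysed here.

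A further row of the authors' table, outside the gene lists, carries annotation terms of replication. It has no symbol or title, and its deposited annotation terms are DNA topological change and DNA unwinding during replication. It was singled out after its values were seen. Its signals were 930, 856 and 770 on insulin arrays 1, 2 and 3, against 301, 405 and 335 on control arrays 1, 2 and 3, which gave a log2 difference of 1.26 (SE 0.15). The groups did not overlap, and the difference was close in size to that of KIAA0101. No gene name is given to it here.

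CDK4, the kinase that with D-type cyclins phosphorylates the retinoblastoma protein in G1, gave signals of 2299, 2332 and 2160 on insulin arrays 1, 2 and 3, against 1467, 1462 and 1634 on control arrays 1, 2 and 3. Means were 2264 ± 91.1 with insulin and 1521 ± 97.8 in control (SD, n = 3 each), and the log2 difference was 0.57 (SE 0.12). This was the smallest difference of the 8, with the lowest insulin signal 1.32-fold above the highest control signal. CDK4 was the only named row of a list of 32 genes of the G1 to S transition, so cyclins, E2F factors and CDK inhibitors were not analysed here.

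EZH2, the methyltransferase of Polycomb repressive complex 2, which places methyl groups on histone H3 and is well expressed in dividing cells, gave signals of 693, 664 and 611 on insulin arrays 1, 2 and 3, against 401, 344 and 369 on control arrays 1, 2 and 3. Means were 656 ± 41.7 with insulin and 372 ± 28.6 in control (SD, n = 3 each), and the log2 difference was 0.79 (SE 0.12). The lowest insulin signal was 1.52-fold above the highest control signal.

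LMNB1, a B-type lamin of the nuclear envelope whose level falls in senescent cells, gave signals of 708, 632 and 617 on insulin arrays 1, 2 and 3, against 310, 258 and 334 on control arrays 1, 2 and 3. Means were 652 ± 49.0 with insulin and 301 ± 39.0 in control (SD, n = 3 each), and the log2 difference was 1.08 (SE 0.14). Control array 2 was the low one of its group, and the groups did not overlap. EZH2 and LMNB1 were the 2 named rows of a list of 24 genes of S-phase chromatin and the nuclear lamina.

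Set against the whole array, the median log2 difference of the 8 genes was 0.85, and that of all 14410 probe sets tested was -0.0011. RRM2 ranked 28 by size among all tested differences in the direction of higher signal with insulin, KIAA0101 ranked 43, LMNB1 71, DTYMK 141 and EZH2 208. RRM1, FEN1 and CDK4 ranked 400, 462 and 465. RRM2, KIAA0101 and LMNB1 differed by 1 or more on the log2 scale, as did 0.694% of all tested probe sets. In the limma fit over all probe sets, 7 of the 8 passed the threshold of 0.05 as higher, CDK4 being the exception, against 1.18% of all tested probe sets. With the replicate number as a block 8 of 8 passed, against 3.10% of all. Without control replicate 3 the count was 0, and without insulin replicate 2 it was 1, KIAA0101. Leaving out insulin replicate 1, insulin replicate 3 or control replicate 2 left 2, RRM2 and KIAA0101. With dim probe sets kept in the fit the count was 0. Every insulin array lay above every control array in 8 of 8 genes and in 12.3% of all tested probe sets. Nothing is read from these counts, because the rows were chosen on this contrast.

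**Figure D2:**
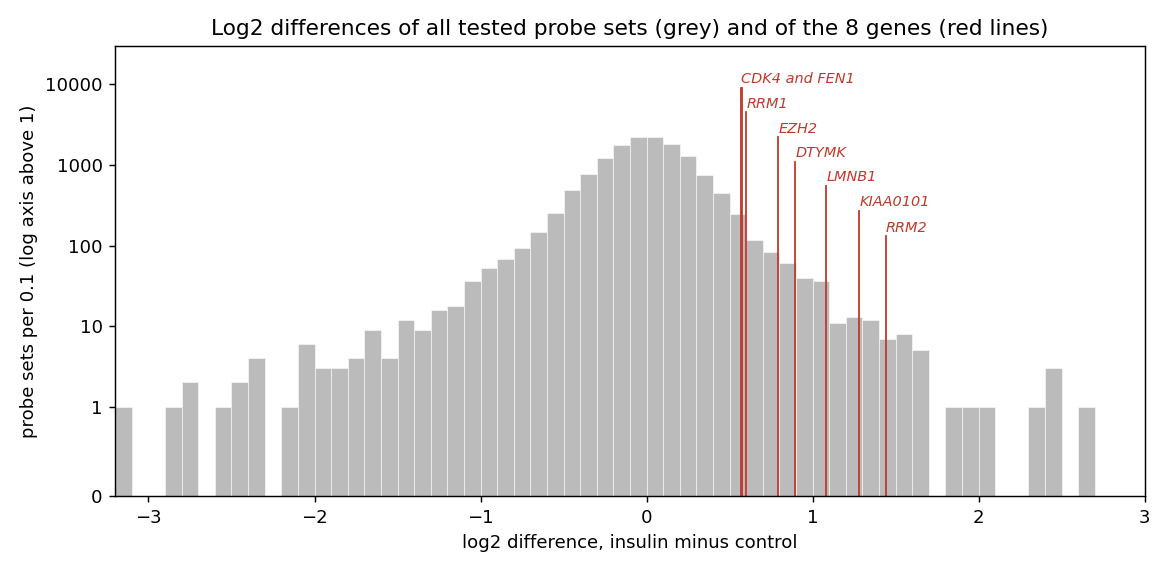
Number of tested probe sets per 0.1 of log2 difference, insulin minus control (vertical axis logarithmic above 1), with red lines at the 8 genes. The genes lie between 0.57 and 1.44 on the upper side of a distribution centred near 0, and the lines of CDK4 and FEN1 coincide at 0.57.

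Arrays of the same replicate number were set against each other, since their deviations from the group means went together over the tested probe sets. The labels state no pairing beyond the shared number. All 24 differences of the 8 genes, insulin minus control within a number, were above 0. This follows from the lack of overlap between the groups in these genes and adds nothing to it. Of all tested probe sets, 24.3% were higher with insulin in all 3 numbers. The median over the 8 genes was 0.84 for number 1, 0.95 for number 2 and 0.75 for number 3. RRM2 differed by 1.66, 1.41 and 1.26 in numbers 1, 2 and 3, and KIAA0101 by 1.30, 1.18 and 1.36. CDK4 had the lowest single value, 0.40 in number 3, beside 0.64 and 0.67 in numbers 1 and 2. RRM1 varied least, with 0.56, 0.62 and 0.62.

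**Figure D3:**
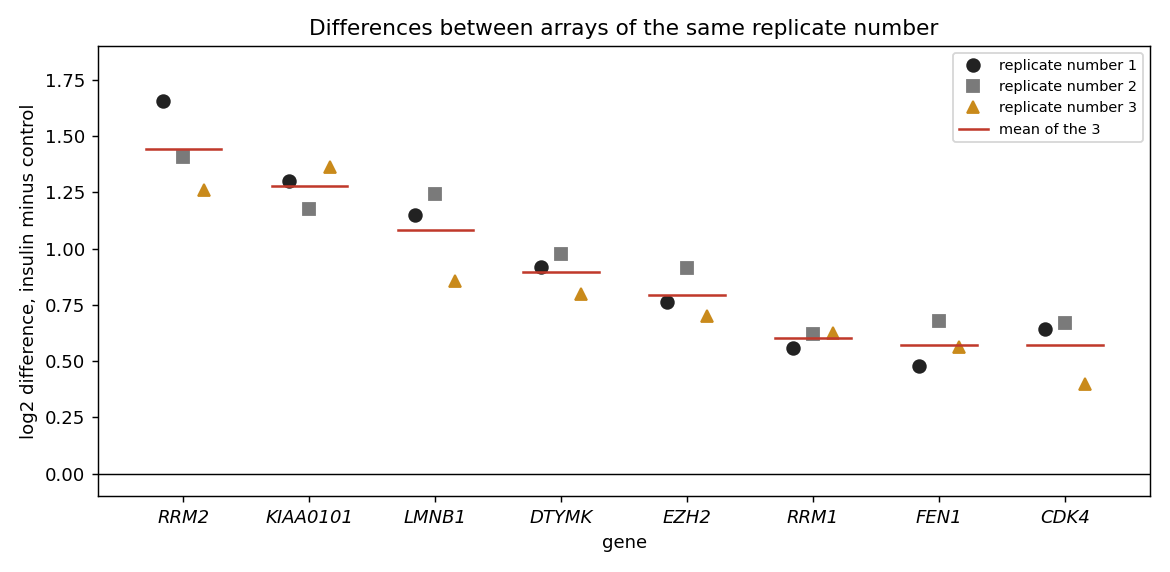
Log2 difference, insulin minus control, between arrays of the same replicate number for each gene, with a red line at the mean of the 3. All points lie above 0, as the lack of overlap between the groups requires. They run from 0.40 for CDK4 in number 3 to 1.66 for RRM2 in number 1.

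Within groups the genes did not all vary alike. On insulin array 3, 7 of the 8 genes lay below their insulin mean, DTYMK being the exception, with a mean deviation over the 8 of -0.09 on the log2 scale. On insulin array 2, 7 lay above it, LMNB1 being the exception, and on insulin array 1, 5 did. Over all tested probe sets, 47.8% lay above the group mean on insulin array 3, 53.8% on insulin array 2 and 50.4% on insulin array 1. The largest single deviation, -0.28, was that of RRM2 on insulin array 3. Among control arrays no such common direction was seen, with 5, 3 and 3 of the 8 genes above their mean on arrays 1, 2 and 3. DTYMK, CDK4 and LMNB1 were high on control array 3, by 0.11, 0.10 and 0.15, where KIAA0101, RRM2 and RRM1 were low, at -0.14, -0.10 and -0.08.

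**Figure D4:**
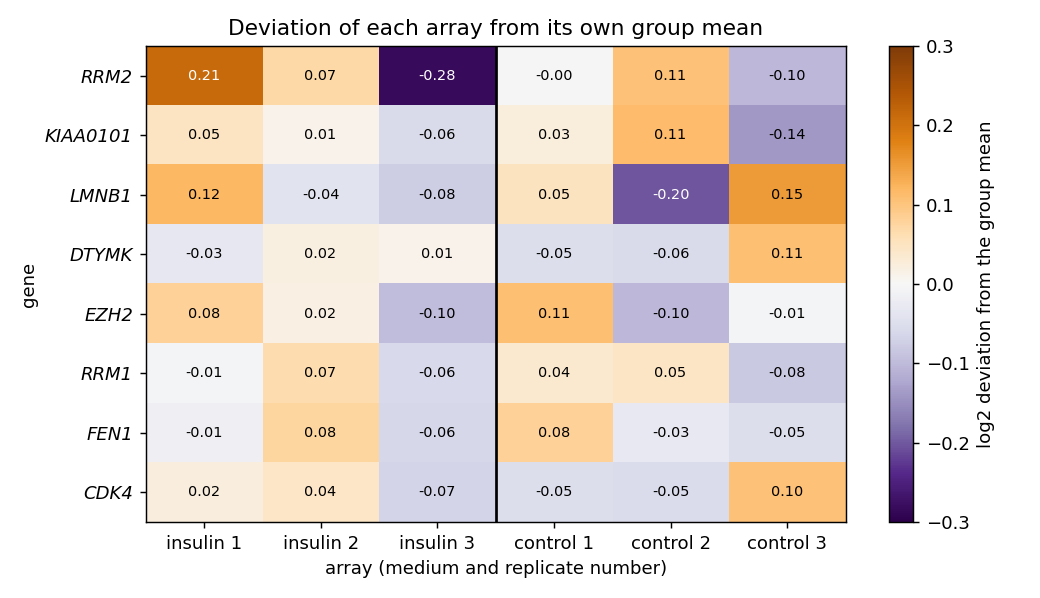
Log2 deviation of each array from the mean of its own group, for each gene (rows) and array (columns, insulin left of control). Insulin array 3 is below its group mean in 7 of the 8 genes, and control array 3 is above it for DTYMK, CDK4 and LMNB1 and below it for KIAA0101, RRM2 and RRM1.

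The standard deviation of log2 signal within groups was 0.07 for RRM1, DTYMK and FEN1, 0.08 for CDK4, 0.10 for KIAA0101 and EZH2, 0.15 for LMNB1 and 0.19 for RRM2. The median over all tested probe sets was 0.19, and 7 of the 8 genes lay below it. A small spread is also part of what gave the authors' p-values, so it was used in the choice of the rows. Their signals were in the upper part of the array's range. Averaged over the 6 arrays, their signals lay between the 64.1st percentile of all bovine probe sets, for FEN1, and the 93.2nd, for RRM1.

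The shape of each gene over the 6 arrays was compared by the root mean square distance between log2 profiles centred on their own mean, a measure that the difference between media dominates. RRM1 and FEN1 were the closest pair, at 0.04, and CDK4 was nearest to FEN1, at 0.09. RRM2 and KIAA0101 were each nearest to the other, at 0.14, and DTYMK and EZH2 likewise, at 0.12. RRM2 and CDK4 were the farthest apart, at 0.46.

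Among 97 other named and tested rows of the authors' table, those nearest to the mean profile of the 8 genes over the 6 arrays were MGC128333, a hypothetical protein, at 0.06, and CDC20, an activator of the anaphase-promoting complex, at 0.06. The protease inhibitor SERPINA5 followed at 0.08, then ATP5MC1, a subunit of ATP synthase, at 0.09. AURKB, a mitotic kinase, BCKDHB of branched-chain amino acid breakdown, FASN, the fatty acid synthase, and a row titled as a nerve growth factor receptor associated protein, whose gene number is BEX5 in RefSeq, lay at 0.10, and HMGCS1 of cholesterol synthesis at 0.11. The 10 nearest rows thus included 2 genes of the mitosis list. They come from a table chosen on the same contrast, so their nearness says little beyond a similar difference between media.

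The mitosis list of 33 genes had 6 named rows, AURKB, CDC20, CKAP2, CENPA, SPAG5 and UBE2C, with log2 differences between 0.91 and 1.34 and a median of 1.32. All 6 passed the limma threshold as higher, against 1.18% of all tested probe sets. Of the 8 replication and S-phase genes, 5 had smaller differences than any of the 6 mitosis rows. These 6 rows were chosen by the authors on this contrast too, and the difference between the lists was not tested. Of 44 marker genes of oocytes, granulosa, theca, stroma, vessels, blood and surface epithelium, 0 had a named row, so the makeup of the pieces was not examined and its part in these differences was not tested.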

How the data were processed

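Biotin-labelled RNA from 3 insulin and 3 control samples was hybridised to Affymetrix bovine arrays, 1 per sample. The deposited values are linear signal intensities that the authors had scaled. Per the submitters' processing notes the software was GCOS. Its settings are not stated in those notes. The 6 arrays had medians of 196 to 212, and precision is limited by the number of arrays. The authors' deposited table of 158 rows gives, per the file headers, a log2 ratio, a linear fold, a p-value and a t score of insulin over control. What test stands behind them is not stated there. Its 9 per-array columns were not used. The 3 of them with day 0 names match no sample of the series, and the others were not matched to samples.

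Signals were taken as log2(signal + 16), which understates differences of dim probe sets. The 112 control probe sets and the 40% of the others with the lowest mean log2 signal (below a signal of 122) were left out, and 14410 remained. All 8 genes were among them. Media were compared with limma 3.58.1 (R 4.3.3), without a block, with Benjamini-Hochberg adjustment over all probe sets and a threshold of 0.05. SEs are limma's, and SDs are over 3 arrays. Plots were made with Python 3.11.15 and matplotlib 3.10.9. On simulated data for the 14410 probe sets in this comparison, the fit recovered 57 of 100 changes of 1 and 98 of 100 changes of 2 on the log2 scale. It also called 5 unchanged probe sets. The simulated noise was independent between arrays, whereas deviations of the real same-numbered arrays were correlated, so these shares may differ for the real arrays.

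Same-numbered insulin and control arrays correlated in their deviations from group means at 0.56, 0.31 and 0.42 for numbers 1, 2 and 3, and differently numbered ones between -0.41 and 0.13. Deviations cancel within each group, so positive values for same-numbered arrays push those for differently numbered ones down. The contrast between them is thus partly arithmetic. The pairing is read from these data, not from the labels.

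The genes, the gene lists and the rule for naming genes (all 8 genes, every named row of 5 lists, and the 10 nearest named profiles) were chosen with earlier results of these data known. Of the 10 nearest profiles, 1 is not reported here. The row without symbol or title was added after its values were seen. No sequence or coordinate is given, because none of the build of these arrays was used here.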

Additional observations from a re-analysis of the deposited data

How the results depend on the processing

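Over 14 alternative settings, the log2 difference of each of the 8 genes kept its sign. With another pseudocount or 1 array left out, this follows from the lack of overlap between the groups. The filters, the trended variance and the replicate block do not alter the difference itself. The kept sign is therefore no support for the differences. RRM2 ranged from 1.34 to 1.58, KIAA0101 from 1.21 to 1.34 and CDK4 from 0.54 to 0.62, and the median of the 8 moved from 0.85 to between 0.78 and 0.87. KIAA0101 passed the limma threshold in 12 of the 14, RRM2 in 11, DTYMK, EZH2 and LMNB1 in 8, RRM1 in 7, CDK4 in 5 and FEN1 in 4. The authors chose these rows on the same contrast and arrays. These counts and the adjusted p-values below therefore describe the fits and are no evidence for the genes. FEN1 and CDK4 lay next to the threshold, with limma adjusted p of 0.0499 and 0.0522, and over the settings these ran from 0.0234 to 0.175 for FEN1 and from 0.0150 to 0.187 for CDK4. The count of genes passing, 7 of 8, was 0 with no filter on dim probe sets. Leaving out 1 array gave 0 to 5. The count over all probe sets, 326, was 2 with no filter, 542 with a trended robust variance and 916 with the replicate block. Leaving out 1 array gave 3 to 242. The replicate block, which is a pairing read from the data, brought CDK4 past the threshold and so gave 8 of 8. Fewer arrays leave fewer degrees of freedom in the fits without 1 array, and the counts also differed with the array left out. The cause of the changed counts was not tested for any setting. No probe set shares a cluster number with the 8 genes, so the planned comparison with such probe sets gave no value. Signal over background was not available, since no detection call was used.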
